A study of Homo sapiens with 28 samples.

Results

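The comparison set 7 myeloma cell lines with the translocation t(4;14), H1112, KMS18, KMS26, KMS28, KMS34, LP1 and OPM2, against 11 lines with other founding translocations. The lines were chosen by name, as lines known for t(4;14), and they are 7 of the 22 untreated lines and 7 of the 28 libraries of the series. The 11 other lines fall into 6 in which CCND1 is rearranged (Karpas620, KMS12BM, KMS12PE, KMS21BM, KMS27 and U266) and 5 of the MAF translocation group (L363, MM1S, OCIMY5, RPMI8226 and XG-6). The labels name only the line, so these groups rest on what is generally known of the lines, and those of H1112, XG-6 and KMS21BM are the least certain. Over tested regions H1112 had a mean r of 0.525 with the other t(4;14) lines and 0.551 with the CCND1 lines, and without it 75 regions were called in place of 30. KMS11, which carries a t(4;14) and a MAF translocation, and KMS20, PCM6 and PE1 were left out of the tests. PE1 was nearly the same as KMS34 (r = 0.916 over tested regions, against at most 0.763 between the 18 compared lines), and KMS12BM and KMS12PE derive from one patient.

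ATAC-seq reads out accessible chromatin through a transposase that inserts sequencing adapters where DNA is not packed away. Per the study's methods, libraries were made from viable sorted cells. Per the labels, 6 of the 22 lines were also assayed on day 3 of lenalidomide at 10 µM. Each line was assayed once, so the line is the unit of every comparison and all error is the spread between lines. Values are CPM, the counts of a region scaled to a common library total, over 154985 autosomal regions, with totals of 1635784 to 5564534 counts in t(4;14) lines and 1602855 to 3929936 in the others. In such bulk libraries, fewer cells with an open region and a less open region in each cell cannot be told apart.

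The t(4;14) translocation places the IgH enhancers on chromosome 4p16, beside FGFR3, a receptor tyrosine kinase, and WHSC1 (also named NSD2 or MMSET), which methylates histone H3 at lysine 36. WHSC1 is raised in essentially all such tumours, while FGFR3 is raised in only part of them. The broad H3K36 dimethylation that follows is known to reshape chromatin between genes. CCND1 lines overexpress cyclin D1 and MAF lines are named for the transcription factor MAF.

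All 10 plasma cell marker genes, among them SDC1, TNFRSF17, CD38 and IRF4, had a region at their start that was tested, and none differed between the groups at an unadjusted p below 0.05. Of the B cell markers, 4 of 8 were tested, and the summed CPM of the list ran from 39.4 to 80.9 in t(4;14) lines and from 53.2 to 147 in the others. At an unadjusted p below 0.05, PAX5 and CD79B were lower in t(4;14) lines, and neither passed adjustment. In the T cell list, CD8A was the 1 tested gene (14.3 ± 3.93 CPM, SD, n = 7, against 32.7 ± 15.5 CPM, SD, n = 11; edgeR adjusted p = 0.129), while CD3E averaged 1.34 and 2.49 CPM, and CD2 and CD5 had no region. The summed T cell list ran from 14.4 to 25.5 CPM in t(4;14) lines and from 20.2 to 64.9 CPM in the others. Of 8 myeloid genes none was tested, LYZ and MPO had no region, and the sum ran from 5.10 to 9.34 CPM and from 5.90 to 38.1 CPM. The part of such cells or programmes in the results was not tested. H1112, the deepest library, also had the most called regions (58983) and the lowest promoter share of counts (43.9%), and XG-6, the shallowest, had the lowest share of the other lines (46.2%).

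Few regions separated the t(4;14) lines from all other lines. Of 44272 regions with enough counts, 30 passed an adjusted p of 0.05 by edgeR's quasi-likelihood test (0.0678% of those tested). Of these, 14 were higher in t(4;14) lines (0.0316%) and 16 were lower (0.0361%), and 5051 regions had an unadjusted p below 0.05 (11.4%). The log2 difference ran from 2.46 to 3.70 among the higher and from -5.23 to -2.80 among the lower regions. The count depended on single lines: without KMS28 or without OPM2, edgeR called 0 regions, with 4694 and 4893 at an unadjusted p below 0.05, and without MM1S it called 252. With KMS12BM and KMS12PE, which derive from one patient, summed as 1 line, it called 14. DESeq2 called 1021 regions (2.31%), 406 higher (0.917%) and 615 lower (1.39%), with all 30 among them. Each of the 30 kept its direction in the other t(4;14) fits that tested it.

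The higher and the lower regions differed in sequence. In their middle 300 bases the 14 higher regions had a median of 42.5% GC and 3.5 CpG dinucleotides. The 16 lower regions had 59.8% and 18.5, and all tested regions 53% and 6. The windows below are picked examples, the middle 300 bases of regions that carry the contrast. They are read from GRCh37 on the plus strand, with CpG dinucleotides in capitals. The first pair was more accessible in t(4;14) lines, within an intron of PDE10A (chr6:166063128-166063427) and in an intergenic stretch of chromosome 18 (chr18:58266562-58266861). The last was less accessible, in a non-coding RNA gene beside SPAG9 (chr17:49021593-49021892).
PDE10A intron: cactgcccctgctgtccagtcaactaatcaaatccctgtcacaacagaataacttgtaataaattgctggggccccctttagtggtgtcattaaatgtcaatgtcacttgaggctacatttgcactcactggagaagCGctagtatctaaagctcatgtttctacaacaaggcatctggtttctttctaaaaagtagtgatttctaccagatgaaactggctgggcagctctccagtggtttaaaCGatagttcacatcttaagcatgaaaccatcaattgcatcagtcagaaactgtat
chromosome 18: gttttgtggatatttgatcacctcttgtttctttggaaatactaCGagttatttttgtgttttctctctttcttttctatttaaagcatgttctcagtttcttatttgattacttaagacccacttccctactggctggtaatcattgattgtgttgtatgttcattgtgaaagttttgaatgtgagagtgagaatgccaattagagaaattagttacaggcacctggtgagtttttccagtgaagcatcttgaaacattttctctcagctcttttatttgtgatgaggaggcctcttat
beside SPAG9: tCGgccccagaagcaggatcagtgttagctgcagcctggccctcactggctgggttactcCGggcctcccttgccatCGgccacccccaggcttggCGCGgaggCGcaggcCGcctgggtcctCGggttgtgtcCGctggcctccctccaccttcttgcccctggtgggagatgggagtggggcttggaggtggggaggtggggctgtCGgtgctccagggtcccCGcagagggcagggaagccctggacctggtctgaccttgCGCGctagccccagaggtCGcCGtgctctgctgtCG
The higher pair holds 2 and 1 CpG dinucleotides at 41.7% and 35% GC, and the lower window holds 16 at 69.7% GC. The lower window is of a promoter region and the higher pair is not. At promoters, 2 of 2 higher and 7 of 8 lower regions had 10 or more CpG dinucleotides, as had 75.1% of all tested promoter regions. Outside promoters, 0 of 12 higher and 5 of 8 lower regions had as many, against 17.8% of all tested regions there. Over all tested regions outside promoters, the median log2 difference was 0.24 with 0 to 2 CpG dinucleotides and -0.15 with 10 or more.

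Of the 30 called regions, 10 had values that did not overlap between the 7 and the 11 lines, 4 higher and 6 lower. Over all tested regions, 9 were higher without overlap (0.0203%) and 8 lower (0.0181%). These 10 are described singly, and no gene was nearest to more than 1 called region.

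PDE10A encodes a phosphodiesterase that breaks down cAMP and cGMP. At its intronic region (chr6:166062948-166063608, 4.76 kb from a start) the 7 t(4;14) lines had a lowest value of 4.34, a median of 11 and a highest of 36 CPM, against 0.343, 1.79 and 2.54 CPM in the 11 other lines. OPM2 was highest and LP1 lowest, and no line of the other groups reached LP1. The difference was 3.07 on the log2 scale (SE 0.44, edgeR adjusted p = 0.0137), and 16 of the 18 fits without 1 line called it.

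GLB1L2, a beta-galactosidase-like gene, was the 1 promoter among these 4 higher regions (chr11:134201480-134202455). Its lowest, median and highest values were 14.1, 22.5 and 47.7 CPM in t(4;14) lines and 0, 1.53 and 10.4 CPM in the others. RPMI8226 (10.4 CPM) and U266 (9.29 CPM) stood above the other 9 comparison lines yet below every t(4;14) line. The log2 difference was 3.03 (SE 0.56, edgeR adjusted p = 0.0449), with 5 of 18 fits without 1 line calling it. The adjusted p was 0.158 once counts were offset for background reads and 0.0792 with KMS12BM and KMS12PE summed (edgeR). KMS11 had 35.8 CPM here.

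The other 2 higher regions are intergenic. On chromosome 18 (chr18:58266410-58267015), 226 kb from the start of MC4R, a melanocortin receptor gene, values were 5.05, 14.4 and 20.3 CPM in t(4;14) lines and 0.509, 1.35 and 4.81 CPM in the others (log2 difference 2.86, SE 0.45, edgeR adjusted p = 0.0184). KMS18 was the lowest t(4;14) line and MM1S the highest of the rest. On chromosome 8, 943 kb from the nearest protein-coding start, they were 4.34, 8.45 and 15.7 CPM against 0.624, 1.84 and 3.57 CPM (log2 difference 2.48, SE 0.37, edgeR adjusted p = 0.0137).

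The largest loss was at chr13:104116587-104117562, 398 kb from SLC10A2, which encodes the ileal bile acid transporter. All 7 t(4;14) lines lay between 0.433 and 1.26 CPM, and the others had a lowest value of 1.47, a median of 32.1 and a highest of 70.4 CPM. All 6 CCND1 lines had 32.1 CPM or more. Of the MAF lines, XG-6 had 23.7 and RPMI8226 17.0 CPM, while L363, MM1S and OCIMY5 had 1.47 to 1.72 CPM. The log2 difference was -5.23 (SE 0.85, edgeR adjusted p = 0.0202).

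The region beside SPAG9, a scaffold of stress kinases (chr17:49021121-49022365, 20.5 kb from its start), was low in t(4;14) lines against both other groups. Its values were 0.522, 1.74 and 3.67 CPM in t(4;14) lines and 4.76, 21.0 and 48.9 CPM in the others (log2 difference -3.60, SE 0.52, edgeR adjusted p = 0.0137). It was 1 of the 2 regions called against the MAF lines alone (log2 difference -3.76, edgeR adjusted p = 0.0409), and 16 of 18 fits without 1 line called it. KMS11 had 25.3 CPM here, on the side of the other lines.

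The other 4 lower regions without overlap had smaller log2 differences. At an annotated start of ANKS1B (chr12:99139285-99139932), a gene of synaptic adaptor proteins, t(4;14) lines had at most 0.928 CPM and the others at least 2.19 CPM. Within BNIP5 (chr6:36287039-36287648) the limits were 1.22 and 2.02 CPM, and within SPESP1, a sperm equatorial segment gene (chr15:69136105-69136576, with the start of ANP32A as the nearest coding start), they were 1.12 and 1.35 CPM. Their log2 differences ran from -3.16 to -2.88, and these 3 regions were too low to be tested against the CCND1 or the MAF lines alone. A peak was called in 0 of the 7 t(4;14) lines and in 2, 5 and 4 of the 11 others, in the order named. With t(4;14) values near 0, these 3 regions passed the count filter only through the other lines. Their lack of overlap near the floor does not by itself show a separation. They were tested in 11 of the 18 fits without 1 line. At chr5:4615530-4616343, 524 kb from ADAMTS16, a secreted metalloprotease gene, t(4;14) lines had 0.865 to 10.6 CPM and the others 11.5 to 70.8 CPM (log2 difference -2.80, SE 0.53, edgeR adjusted p = 0.0470). It was called in 4 of 18 fits without 1 line, and its edgeR adjusted p was 0.0792 with KMS12BM and KMS12PE summed.

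**Figure D1:**
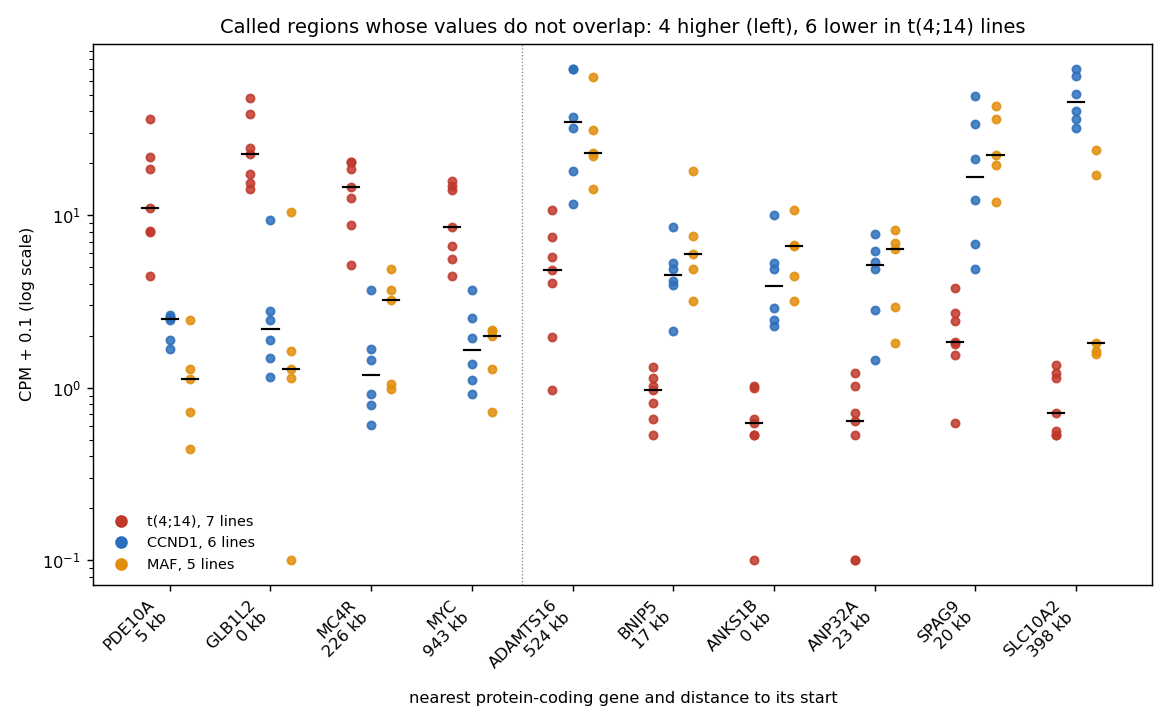
Accessibility at the 10 called regions without overlap, in CPM plus 0.1 on a log axis, by nearest protein-coding gene and distance to its start. Each point is 1 line and each black bar a group median; at the region 398 kb from SLC10A2, all 6 CCND1 lines lie at 32.1 CPM or more and the 7 t(4;14) lines at 1.26 CPM or less.

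The other 20 called regions overlapped in at least 1 line. Among the higher ones were the promoter of PRTFDC1, a phosphoribosyltransferase-like gene (29.2 ± 14.5 CPM, SD, n = 7, against 5.22 ± 4.17 CPM, SD, n = 11), a region 59.7 kb from the coding start of AKR1C1, an aldo-keto reductase gene (13.2 ± 8.19 against 1.89 ± 1.33 CPM), and a region 283 kb from PFKP, a phosphofructokinase gene, which had the largest rise (25.8 ± 14.6 against 1.99 ± 2.98 CPM). H1112 was far below the other t(4;14) lines at the region 219 kb from TMEM132C, with 0.359 CPM. Among the lower ones were promoters of PDE4B, a cAMP phosphodiesterase (0.606 ± 0.436 against 9.98 ± 6.91 CPM), FARP1, a guanine nucleotide exchange factor (0.535 ± 0.272 against 6.79 ± 3.71 CPM), VWCE (4.39 ± 4.05 against 33.9 ± 14.4 CPM) and PAK6, a kinase (0.921 ± 0.468 against 8.34 ± 5.50 CPM).

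The directions differed in position. Of the 14 higher regions 8 were intergenic, 4 in gene bodies and 2 at promoters, and of the 16 lower regions 3, 5 and 8, where 39.2% of all tested regions were at promoters. The median distance to a protein-coding start was 215 kb for the higher and 19.9 kb for the lower regions, against 8.35 kb over all tested regions. Within 100 kb of the higher regions lay 28 other tested regions, of which 24 had a log2 difference above 0, as had 21589 of all 44272 tested regions. Of the 28, 10 were higher at an unadjusted p below 0.05 by edgeR, as were 5.40% of all tested regions. The region 226 kb from MC4R on chromosome 18 gave 5 of the 28 and 4 of the 10. A region 100 kb from ADGRD1 on chromosome 12 gave 2 and 2, and 4 of the 14 higher regions had no such neighbour. Near the lower regions 78 were counted, of which 62 were below 0 and 14 at an unadjusted p below 0.05, against 6.01%. The lower regions beside SPAG9 and nearest to TOB1 lie within 100 kb of each other. Each is therefore counted as a neighbour of the other, and regions near both are counted at both. They gave 7 and 9 of the 78, and 3 and 3 of the 14.

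Lines that the test did not use were set beside these regions. KMS11 was nearer to the t(4;14) mean at 21 of the 30 called regions (70%), against 57.3% of all tested regions. KMS20 was so at 7 (23.3%, against 46.9%) and PCM6 at 9 (30%, against 45%). PE1, the near copy of KMS34, was so at 29 (96.7%, against 63.3%).

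At 4p16 itself no region was called. The summed accessibility of 30 regions between positions 1700000 and 2100000 of chromosome 4 was 8.18 on the log2(CPM + 1) scale in t(4;14) lines and 7.93 in the others, a difference of 0.25 that was smaller than the spread (exact permutation test, two-sided, p = 0.314). KMS18 had 559 CPM in this window and the other 6 t(4;14) lines 179 to 332 CPM.

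One region within it stood out by line. It lies between the ends of FGFR3 and LETM1, a mitochondrial membrane protein gene (chr4:1811475-1812558), 876 bases past the end of FGFR3 and 648 bases from LETM1. The middle of this region is shown because it had the largest log2 difference among the tested regions of the 4p16 window.
downstream of FGFR3: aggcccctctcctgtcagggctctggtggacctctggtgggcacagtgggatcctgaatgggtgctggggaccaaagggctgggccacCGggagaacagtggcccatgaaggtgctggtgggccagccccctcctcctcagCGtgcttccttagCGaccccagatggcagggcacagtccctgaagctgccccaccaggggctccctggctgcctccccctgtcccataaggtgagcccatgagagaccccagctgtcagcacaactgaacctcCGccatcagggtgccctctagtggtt
This window (chr4:1811866-1812165) holds 4 CpG dinucleotides at 65% GC, so it does not share the low GC content of the 2 higher regions above.

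KMS18 had 90.3 CPM at the region downstream of FGFR3, KMS34 42.4, OPM2 39.1, KMS28 37.6, LP1 13.9, KMS26 9.17 and H1112 4.31 CPM. The 11 other lines had a lowest value of 0.624, a median of 6.05 and a highest of 10.6 CPM, so 5 of the 7 t(4;14) lines lay above all of them and KMS26 and H1112 did not. A peak was called there in 5 t(4;14) lines and in 4 others. The log2 difference of 2.36 (SE 0.50) did not pass (edgeR adjusted p = 0.0775). Of the lines left out, KMS11 had 48.7 and PE1 36.3 CPM, while KMS20 and PCM6 had 2.36 and 5.58 CPM.

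Within FGFR3, a region too low to be tested (chr4:1804210-1804503) had 26.4 CPM in KMS28, 17.4 in KMS18 and 5.22 in OPM2, and at most 2.38 CPM in each of the 11 other lines. At the FGFR3 start the means were 1.55 ± 1.53 and 0.921 ± 0.967 CPM (SD, n = 7 and 11), also below the limit for testing. The region over an annotated WHSC1 start inside the gene (chr4:1900786-1901383) had 5.10, 7.38 and 14.3 CPM in t(4;14) lines and 2.70, 5.84 and 10.0 CPM in the others, which overlap widely (log2 difference 0.45, SE 0.32, edgeR adjusted p = 0.654). A stronger region lies just before the gene, 265 bases from a start (chr4:1871747-1872885). It had 12.0, 32.6 and 42.1 CPM against 12.5, 25.2 and 37.1 CPM (log2 difference 0.11, SE 0.26, edgeR adjusted p = 0.927). Of 18 genes of the band, 16 had a tested region, none was called, and TNIP2, an inhibitor of NF-kB signalling, was lower at an unadjusted p of 0.0128 (adjusted p = 0.284, edgeR).

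**Figure D2:**
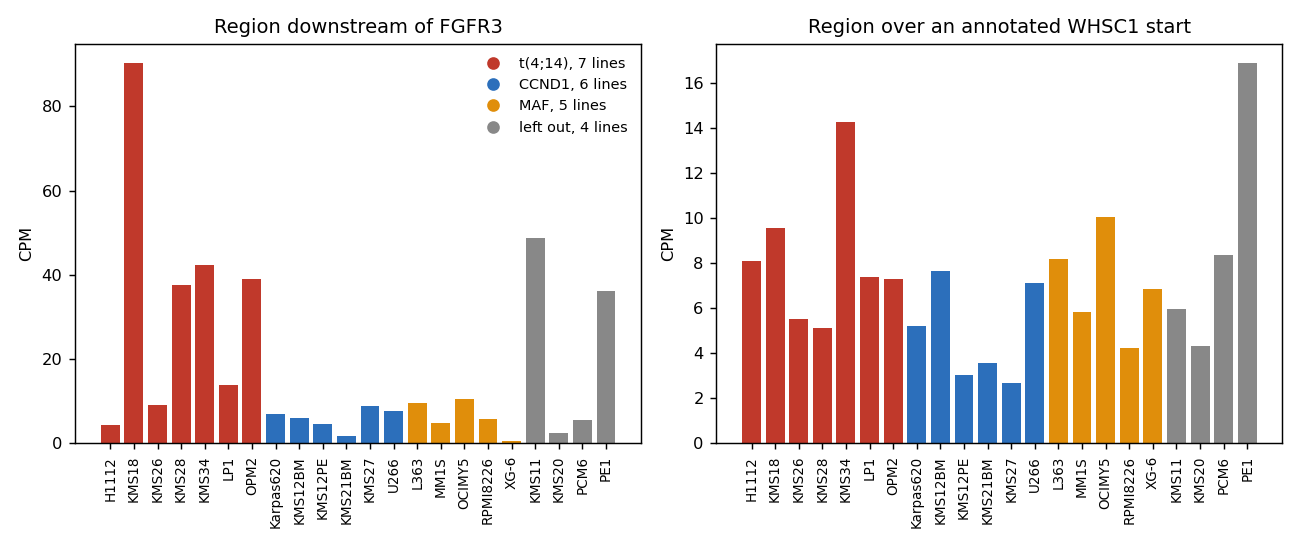
Accessibility in CPM of each line at the region downstream of FGFR3 (left) and at the region over an annotated WHSC1 start inside the gene (right), with 1 bar per line coloured by group. At the left, KMS18, KMS28, KMS34, LP1 and OPM2 exceed the 10.6 CPM of the highest line of the other groups, while at the right the groups overlap.

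Genes known from expression studies of myeloma groups were examined at their starts. Of 10 genes associated with the t(4;14) expression group, 8 were tested and 0 passed edgeR's adjusted threshold, with 2 at an unadjusted p below 0.05, both higher. CDH2 (N-cadherin) had 1.26, 29.3 and 34.4 CPM in t(4;14) lines and 0.273, 0.763 and 40.2 CPM in the others. Of the t(4;14) lines H1112 alone was low, and of the other lines MM1S alone was high (adjusted p = 0.291, edgeR). The median log2 difference of the 8 genes was 0.52, against -0.02 over all tested regions.

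The same kind of count was 0 called of 6 tested for MAF genes and targets, 0 of 3 for D-type cyclins, 0 of 17 for FGF receptor signalling, 0 of 14 for H3K36 and H3K27 methylation enzymes and 0 of 16 for adhesion and mesenchymal genes. At an unadjusted p below 0.05 by edgeR, these lists had 2, 0, 1, 0 and 2 genes. The start of MAF itself had 6.11, 52.1 and 86.8 CPM in t(4;14) lines against 0.254, 11.9 and 28.1 CPM in the others, which include the MAF lines. It did not pass adjustment (log2 difference 1.71, SE 0.64, adjusted p = 0.288, edgeR), and the ranges overlapped. TWIST1, a mesenchymal transcription factor gene, had 1.12, 26.1 and 30.6 CPM against 0, 1.04 and 32.6 CPM (adjusted p = 0.395, edgeR). ETV4, a target of FGF signalling, had 7.83, 17.7 and 28.6 CPM against 17.5, 40.2 and 52.6 CPM (adjusted p = 0.258, edgeR).

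Most calls came from the contrast with the CCND1 lines. With the 6 CCND1 lines, edgeR called 396 of 39393 tested regions (1.01%), 231 higher (0.586%) and 165 lower (0.419%) in t(4;14) lines. With the 5 MAF lines it called 2 of 42400 (0.00472%), 0 higher and 2 lower, with 3030 regions at an unadjusted p below 0.05. In a fit with the 3 groups, edgeR called 0 regions between MAF and CCND1 lines, with 4763 at an unadjusted p below 0.05, so these comparisons, which share the t(4;14) lines, are not shown to differ. The count against the CCND1 lines ran from 90 (without KMS28) to 943 (without KMS21BM) when 1 line was left out, and it was 517 with offsets for background reads.

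**Figure D3:**
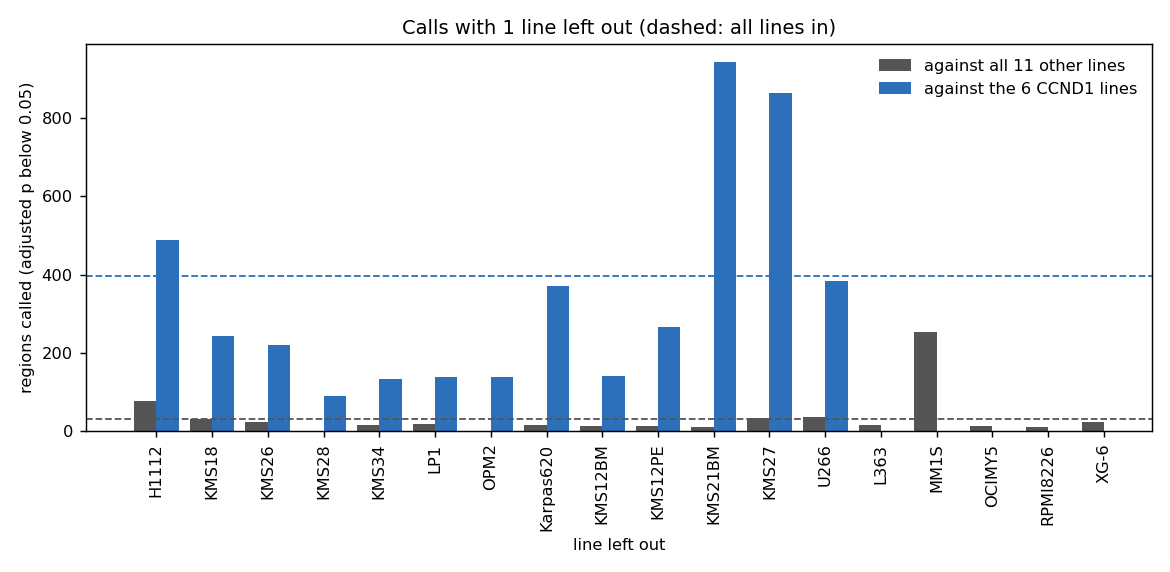
Number of regions called at an adjusted p below 0.05 when the line on the horizontal axis was left out, against all 11 other lines (grey) and against the 6 CCND1 lines (blue), with dashed lines for all lines in (30 and 396). Grey bars fall to 0 without KMS28 or OPM2, and blue bars stay at 90 or more.

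Of these regions, 108 of the higher and 64 of the lower had no overlap between the 7 and the 6 lines, as had 0.779% of all tested regions. The MAF lines were not used in this fit. Their mean was nearer to the t(4;14) mean at 100 of the 231 higher and at 131 of the 165 lower regions, against 50.5% of all tested regions. The called regions were chosen for a gap between the t(4;14) and CCND1 lines. Lines outside the fit therefore tend to fall between them, and no conclusion is drawn from such a position. The MAF lines differed among themselves, from L363, nearer to t(4;14) at 155 of the 396 regions, to MM1S, nearer at 339. Over all tested regions these shares were 47.3% and 57.2%. KMS11 was nearer to t(4;14) at 343 (86.6%, against 61.2% of tested regions) and KMS20 at 135 (34.1%, against 49.5%).

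Regions at CDH2, CDH19, CDH7, RNF152 and GAP43 were among the higher ones, and these genes were picked after their values were seen. All of them but GAP43 lie on chromosome 18, whose share of calls and of background reads is given below. Other cadherin genes were nearest to lower regions, CDH6 with a log2 difference of -3.04 and CDH8 with -2.99. Both CDH2 regions at its start rose (log2 differences 4.84 and 4.52, SE 0.90 and 0.71, edgeR adjusted p = 0.0187 and 0.00997), although H1112 had 0.359 and 1.26 CPM there. The 3 called regions nearest to CDH19 and the 2 nearest to CDH7, further cadherin genes, lie between genes and rose without overlap. RNF152, a ubiquitin ligase gene, had 20.3, 43.7 and 61.2 CPM at its promoter in t(4;14) lines against 0.509, 1.37 and 6.55 CPM in CCND1 lines (log2 difference 3.88, SE 0.61, edgeR adjusted p = 0.00997). GAP43, a growth cone protein gene, had 5.05, 16.7 and 41.5 CPM against 0.273, 1.46 and 1.78 CPM at a region 3.76 kb from its start.

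Chromosome 18 held 31 of the 231 higher regions (13.4%) and 1 of the 165 lower ones, where 2.28% of tested regions lie on it. The share of background reads from chromosome 18, which stands in for copy number, was 2.40% in t(4;14), 1.93% in CCND1 and 2.22% in MAF lines. The difference between the 7 and all 11 lines, 0.34 percentage points, did not pass (exact permutation test, two-sided, p = 0.115, adjusted over 22 chromosomes 0.309). The gap to the CCND1 lines alone, the comparison in which these regions were called, was not tested. With counts offset for background reads in 10 Mb bins, 193 of the 231 higher and 130 of the 165 lower regions of all chromosomes were still called. How many of the 31 on chromosome 18 were among them was not counted.

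FARP1 changed in both directions at different starts. At chr13:98794688-98795397 the t(4;14) lines had 8.35, 23 and 28.1 CPM and the CCND1 lines 0.254, 1.03 and 3.83 CPM (log2 difference 3.60, SE 0.58, edgeR adjusted p = 0.0103). At chr13:99083289-99083768, within the same gene, t(4;14) lines had 0, 0.561 and 0.868 CPM and CCND1 lines 4.38, 9.47 and 12.1 CPM (log2 difference -3.90, SE 0.46, edgeR adjusted p = 0.00153). The ranges overlapped at neither start, so the 2 starts of FARP1 changed in opposite directions.

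Lower regions against the CCND1 lines included the recombinase gene RAG1 (1.30, 5.57 and 12.8 against 13.5, 32.6 and 59.7 CPM) and the transporter gene SLCO1A2 (0, 0.868 and 2.32 against 4.72, 17.3 and 41.8 CPM). A region at LIN28B and LINC00577 (chr6:105384457-105385374), where LIN28B encodes a blocker of let-7 maturation, had 0, 1.04 and 2.32 CPM against 6.75, 40.9 and 70.0 CPM. The MAF lines had at most 2.40 CPM at this last region, as low as the t(4;14) lines.

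CpG and GC content differed between the directions as in the windows above. The median window of the 231 higher regions had 2 CpG dinucleotides and 42.7% GC, that of the 165 lower regions 17 and 59%, and that of all tested regions 7 and 54%. Outside promoters, 101 of the 4291 tested regions with 10 or more CpG dinucleotides were lower (2.35%) and 7 higher (0.163%), while of 7492 regions with 0 to 2 of them 1 was lower (0.0133%) and 121 higher (1.62%). The median log2 difference over all tested regions of these classes was -0.13 and 0.37, so the libraries also differed in this direction among regions that were not called. At promoters with 10 or more CpG dinucleotides, 34 were higher and 40 lower of 12530.

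**Figure D4:**
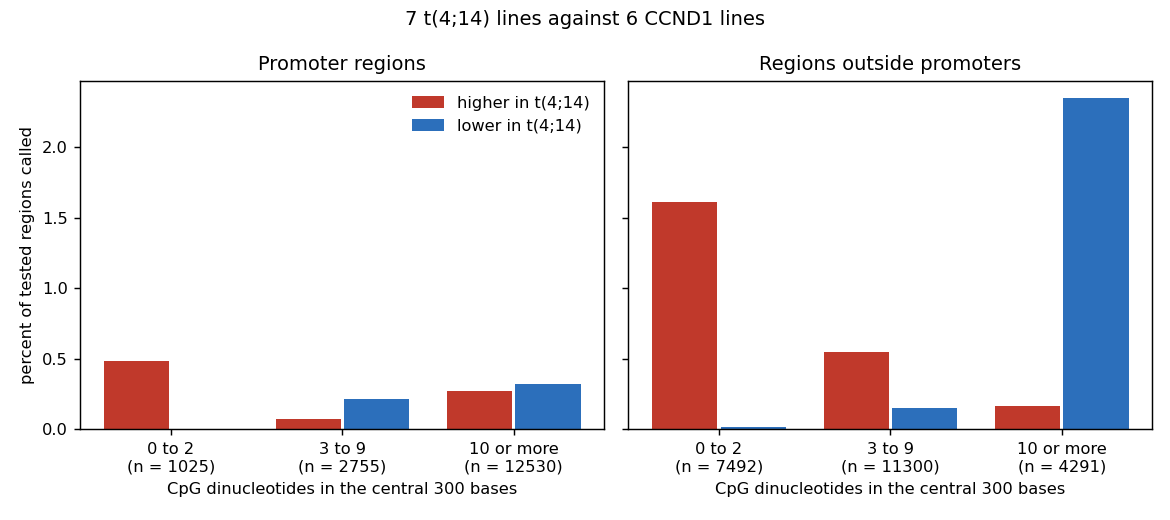
Percent of tested regions called higher (red) or lower (blue) in t(4;14) lines against CCND1 lines, by the number of CpG dinucleotides in the middle 300 bases, at promoters (left) and elsewhere (right), with the number tested under each pair. Outside promoters the lower calls gather in CpG-rich windows (2.35%) and the higher calls in CpG-poor windows (1.62%).

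Letters of 11 short motifs were searched for in the same 300-base windows, on both strands, and those named first were picked after their shares were seen. Among the 231 higher regions TGTGGT, the core letters of a RUNX site, was found in 40.7%, against 24.8% of all tested regions. The interferon response element ISRE was found in 18.2% against 8.74%. The run AGATAA, the core of sites bound by GATA factors, was found in 15.6% against 9.80%. With promoters left out these shares were 45.8% against 32.6%, 21.1% against 11.7% and 17.9% against 13.1%. The higher regions are also poorer in GC, which moves with such letters, and its part in these shares was not tested. TGANTCA, the AP-1 core, was found in 14.3% of higher, 13.3% of lower and 10.4% of tested regions. Other motifs were as frequent or less frequent in the higher regions than in tested ones, such as TEAD (GGAATG, 11.3% of both), CAGCTG (19.9% against 21.2%) and CACGTG (3.46% against 6.17%). Among the 14 regions called higher against all 11 lines, TGTGGT was found in 2 (14.3%, against 25.4% of tested regions). ISRE and AGATAA were found in 0 of them, against 8.85% and 10.0%. So few regions cannot show whether they share the first pattern.

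Over whole libraries the groups did not differ beyond their spread. Promoter regions held 52.2% of counts in t(4;14) and 54.5% in the other lines, gene bodies 26.4% and 25.0%, and intergenic regions 21.4% and 20.5%, with an adjusted p of 0.426 for each class over 3 exact permutation tests (two-sided). The number of regions called per library was 31718 ± 12337 in t(4;14) lines and 32234 ± 5941 in the others (SD, n = 7 and 11, exact permutation test, two-sided, p = 0.978). Of 22 chromosomes, none differed in its share of background reads after adjustment. The lowest unadjusted p was that of chromosome 10, at 4.53% and 3.90% (exact permutation test, two-sided, p = 0.0125, adjusted p = 0.275).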

How the data were processed

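ATAC-seq libraries of 28 cell line cultures were deposited as one table of raw counts of reads per region, made by the authors; no normalization had been applied. Per the study's methods and the submitters' processing notes, reads were mapped to GRCh37 with Bowtie2 (2.2.6), duplicates were marked with SAMtools (1.7), and peaks were called per library with MACS2 (2.1.0.20151222) and merged into 154985 regions. The methods heading is shared with ChIP-seq, and removal of duplicates, shifting of read ends and counting of fragments are not given in the sources used here. A deposited table of called peaks per library was used for peak calls, and the deposited normalized coverage was not used.

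Counts were tested in R (4.3.3) with edgeR (4.0.16): filterByExpr by group, TMM, the quasi-likelihood F test and Benjamini-Hochberg adjustment over all tested regions, with calls at an adjusted p below 0.05. DESeq2 (1.42.0) was an alternative, and limma (3.58.1) was loaded by edgeR. Permutation tests, lists and sequences used Python (3.11.15), pandas (2.3.3) and SciPy (1.17.1). CPM values in the text are scaled to the total counts in regions, with no TMM. Background reads are counts in 28543 regions called in none of the 18 compared libraries. Since the regions are merged peaks of all libraries, these are peaks of KMS11, KMS20, PCM6, PE1 or the lenalidomide cultures. They can therefore hold weak accessibility in the compared lines, and its part in the background reads was not tested. The scripts were tested on simulated data. Some regions hold repeated sequence, where reads can be placed on the wrong copy, and some items are not reported here.

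The lines, gene lists and rules were chosen with earlier results of these data known. Regions named by rule were those called whose 7 and 11 values did not overlap, at most 10 per direction and 1 per nearest gene, then genes with the most called regions, and list genes by the region within 2.5 kb of their start. Other named regions, among them those of FARP1, RAG1, SLCO1A2 and LIN28B against the CCND1 lines, were picked from the called regions outside these rules. KMS11 (t(4;14) and MAF), KMS20, PCM6 and PE1 entered no test, and lenalidomide libraries only an alternative. P-values measure the spread between lines, since no line had a second untreated library. Other alternatives changed the normalization, the filter and the lines included.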

Additional observations from a re-analysis of the deposited data

Results flagged for a closer look

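Of 16 measures examined in the t(4;14) lines by Dixon's criterion (the gap to the nearest line over the range), 2 held a line far from the rest, where chance gives about 0.8. The measures are not independent, since the region downstream of FGFR3 lies in the 4p16 window. KMS18 had 559 CPM in the 4p16 window, against 332 CPM in the next t(4;14) line, OPM2, a gap of 0.597 of the range. At the region downstream of FGFR3 KMS18 was also highest, with 90.3 CPM. H1112 had 58983 called regions, against 30467 in the next t(4;14) line, KMS34, a gap of 0.787 of the range; it also had the most counts (5564534). The part of depth in that number was not tested.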

How the results depend on the processing

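The count of 30 regions was the value that moved most. DESeq2 called 1021, offsets from background reads 49, no filter on low counts 54, KMS12BM and KMS12PE summed 14, the CCND1 lines alone 396 and the MAF lines alone 2. With at least 10 counts in each library edgeR called 0 (832 at an unadjusted p below 0.05), since none of the 30 was then among the 11308 tested. Leaving out 1 line gave 0 to 252: 0 without KMS28 or OPM2, 75 without H1112, 252 without MM1S, 16 and 18 without KMS34 and LP1, and 10 to 15 without each of Karpas620, KMS12BM, KMS12PE, KMS21BM, L363, OCIMY5 and RPMI8226. Chosen after seeing the data were a fit of 3 groups (150 against the mean of both other groups, 650 against CCND1 lines, and 0 against MAF lines with 4428 at an unadjusted p below 0.05 by edgeR), the fit without H1112 and XG-6 (82) and the CCND1 comparison with offsets (517) and without 1 line (90 to 943). Why these counts moved was not tested, apart from the filter. Over all 30 called regions in the other fits, 546 values kept their side of the threshold and 344 fell below it, and 0 reversed. The gene body difference was -0.138 percentage points over each library's own called regions (1.34 by counts). The difference in called regions (-517) was 726 at equal depth and -5061 to 980 without 1 line, positive in 6 of the 18 (113 to 980). Without KMS18, 1 chromosome passed in background reads, so the range was 0 to 1. The groups are made of different lines with 1 untreated library each, so the design holds no pairs. Intervals between lines, not counting error, limit these comparisons.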
